A study of Homo sapiens with 3 samples.

Results

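The genes described here are 9 of the 58735 genes listed in the count tables: HLA-B, HLA-C, HLA-E and HLA-F, which encode heavy chains of HLA class I molecules; B2M, which encodes their light chain; TAP1, TAP2 and TAPBP, which supply and load their peptides; and NLRC5, a transcriptional activator of class I genes. They were taken from the tables by gene name, and they had been chosen with measured values of the same libraries in view. Their differences between libraries are therefore given as a description, without p-values. RNA was sequenced from the prostate cancer cell line DU145, whose growth does not need androgen, in 3 libraries. The control library is labelled as the knockdown control, and per the study's methods such cells carried the empty pLKO.1 lentiviral vector. The other 2 libraries are labelled PD-L1 knockdown 1 and PD-L1 knockdown 2, and per the study's methods knockdown cells carried a pLKO.1 vector with a short hairpin RNA against PD-L1, the immune checkpoint ligand encoded by CD274. The methods number the 2 knockdown lines but list a single hairpin sequence, and do not state whether or how their hairpins differ. All lines were infected and selected as stable populations, and the labels name no added cytokine. Each numbered knockdown is 1 library, and the control has no replicate, so a difference between the control and the others cannot be told apart from a difference between cultures.

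Class I molecules carry peptides made inside the cell to its surface, where CD8 T cells and natural killer cells read them. The proteasome cuts proteins into peptides, the TAP1 and TAP2 transporter moves these into the endoplasmic reticulum, and tapasin, the product of TAPBP, holds the empty heavy chain and B2M at the transporter until a peptide is bound. Interferons raise most of these genes together, through interferon-stimulated response elements and through NLRC5, which acts with RFX, CREB and NF-Y proteins at a conserved promoter module. Many tumours, prostate cancers included, show low class I expression.

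The targeted gene was looked at before the others. Counts of CD274 were 204 in the control library, against 213 and 224 in those labelled PD-L1 knockdown 1 and 2. Its CPM (counts scaled to library size, here after TMM normalization) were 13.8, 14.5 and 14.2. PD-L1 mRNA was thus not lower in either library labelled as a knockdown. The libraries are called knockdown 1 and knockdown 2 only after their labels. Per the study, Western blots were used to check PD-L1 protein in its knockdown DU145 cells, and protein was not measured in these libraries. Sources also differ in other respects: the series text names the thyroid line BCPAP, RBM45 stands in the heading of the control's counts, and the labels name DMEM where the study's methods name EMEM. Total counts were between 14733088 and 15786457. The epithelial markers KRT8, KRT18, KRT19, EPCAM and CDH1 had from 755 to 19056 counts. The prostate luminal genes KLK2, KLK3 and TMPRSS2 had 0 counts in every library, for which 3 counts (0.190 to 0.204 CPM) is the limit that a count of 0 allows. Of the leukocyte markers, PTPRC, CD3E, CD14 and LYZ had at most 15 counts and ITGB2 had 928 to 1145. Of the thyroid markers, TG, TSHR and PAX8 had at most 29 counts, whereas NKX2-1, a thyroid and lung factor, had 1833 to 2590.

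The promoters are shown first, because the class I genes are known for control elements that they share, and the genes can be compared by which of them they hold. Reference sequences from RefSeq (GRCh38.p14) were found for 7 of the 9 genes, and HLA-E and NLRC5 had no entry. They are the reference genome's sequence, not that of DU145. The 250 bases before each annotated start were searched on both strands for 5 motifs, which are in capitals. These were the core of the interferon-stimulated response element (ISRE, GAAANNGAAA), the core of the gamma-activated site GAS (TTCNNNGAA), a kappa B palindrome (GGGANTCCC), the CRE core TGACG and the inverted CCAAT box ATTGG, which NF-Y binds. For HLA-B and HLA-C the 150 bases from -185 to -36 are shown, and for B2M the 120 bases from -150 to -31. The HLA-B stretch is chr6:31357215-31357364 (minus strand), the HLA-C stretch chr6:31272128-31272277 (minus strand) and the B2M stretch chr15:44711367-44711486 (plus strand).
HLA-B: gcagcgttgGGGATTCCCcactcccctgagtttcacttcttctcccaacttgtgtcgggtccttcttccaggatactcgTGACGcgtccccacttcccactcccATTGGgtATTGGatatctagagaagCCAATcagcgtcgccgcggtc
HLA-C: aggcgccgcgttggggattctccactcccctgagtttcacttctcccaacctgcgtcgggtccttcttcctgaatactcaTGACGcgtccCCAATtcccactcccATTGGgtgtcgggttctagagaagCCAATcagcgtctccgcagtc
B2M: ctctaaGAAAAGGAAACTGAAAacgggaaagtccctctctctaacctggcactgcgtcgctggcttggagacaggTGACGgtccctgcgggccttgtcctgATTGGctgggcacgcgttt

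The heavy chain promoters resembled each other closely. In a global alignment of bases -185 to -36, HLA-B and HLA-C were identical at 133 of 154 columns (86.4%), HLA-B and HLA-F at 80.9% and HLA-C and HLA-F at 80.1%. TGACG was found in HLA-B, HLA-C, B2M and TAP2, that is 4 of the 7 genes and 21.2% of the 35116 promoters in the reference. The inverted CCAAT box was found in 5 of the 7 (HLA-B, HLA-C, HLA-F, B2M and TAP1) and in 32.0% of all promoters. The kappa B palindrome was found in HLA-B alone, at -176 to -168, and in 0.772% of all promoters. The HLA-C stretch holds gggattctc, which differs from its letters only in the next-to-last base. The GAS core was found in none of the 7 and in 6.57% of all promoters.

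By its strict letters, the ISRE core set the transporter, tapasin and light chain genes apart from the classical heavy chains HLA-B and HLA-C. It was found in HLA-F, B2M, TAP1, TAP2 and TAPBP, and in 3.02% of all promoters, and HLA-B and HLA-C had no match to these letters. Both of their stretches hold tttcacttc, which on the opposite strand is the core with an A missing from its first GAAA. Their lack of a match thus rests on the strict letters. For the 4 genes not yet shown, the 30 bases around the match are given, since exons of other annotated transcripts reach into these promoters. They are chr6:29723269-29723298 (plus strand) for HLA-F, chr6:32853816-32853845 (minus strand) for TAP1, chr6:32838778-32838807 (minus strand) for TAP2 and chr6:33314079-33314108 (minus strand) for TAPBP. In B2M, TAP1 and TAPBP there were 2 overlapping matches, and in HLA-F and TAP1 the match was on the strand opposite to the gene. A match describes the letters of the window and is no evidence of a bound factor.
HLA-F: tccccagagTTTCTCTTTCtctcccaaccc
TAP1: cggccgcTTTCGATTTCGCTTTCccctaaa
TAP2: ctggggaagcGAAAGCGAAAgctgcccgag
TAPBP: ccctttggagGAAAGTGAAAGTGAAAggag

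**Figure D1:**
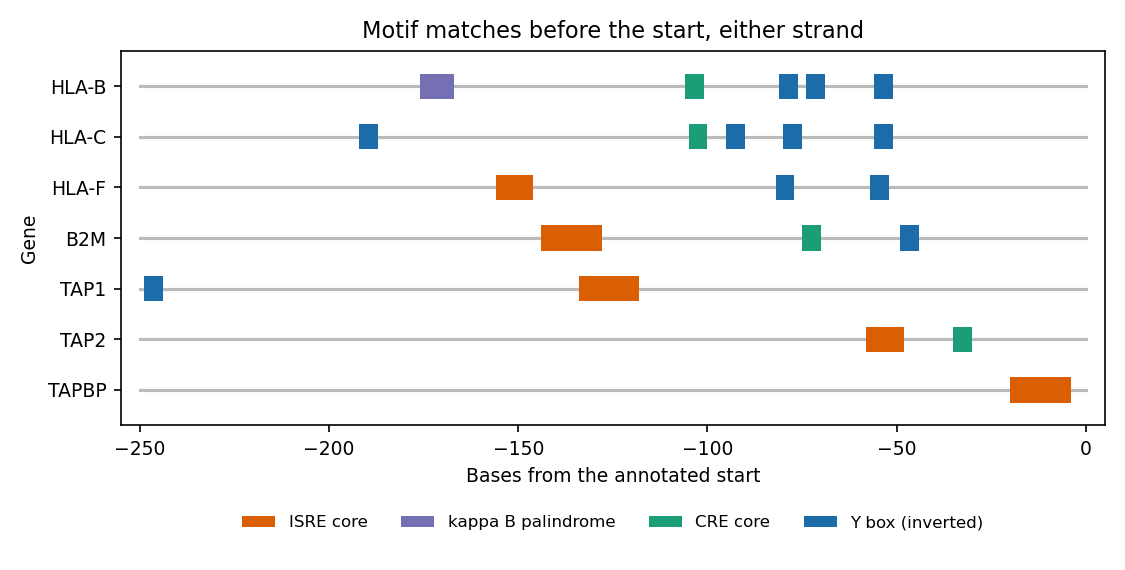
Position of each motif match in the 250 bases before the annotated start (x axis, bases from the start) of the 7 genes with a reference promoter (y axis); colours name the motif, and the Y box is the inverted CCAAT box. ISRE cores lie farthest from the start in HLA-F, from -156 to -147, and nearest to it in TAPBP, from -20 to -5.

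The levels of the genes were compared on the deposited FPKM scale, on which the fragments of a gene are divided by its listed length and by the depth of the library. B2M had the highest level, with 67.6 FPKM in the control, 70.0 in knockdown 1 and 73.9 in knockdown 2. TAPBP followed with 60.9, 63.7 and 74.2, and HLA-C with 51.1, 68.8 and 78.3. The ranges of B2M and TAPBP over the 3 libraries overlapped, as did those of TAPBP and HLA-C, so the order of these 3 genes is not fixed beyond the spread. HLA-B had 38.2, 43.9 and 45.9 FPKM and HLA-E had 32.6, 36.6 and 40.4. Their ranges overlapped each other, although HLA-B was above HLA-E within each library. A gap lay between these heavy chains (HLA-C, HLA-B and HLA-E) and the transporter, with a mean of 15.0 FPKM for TAP1 and 10.1 for TAP2. HLA-F, a non-classical heavy chain that reaches the surface also without peptide, had a mean of 2.17, and NLRC5 was lowest with a mean of 1.53. B2M, TAPBP and HLA-C lay above at least 97.5% of the 19849 genes with 10 or more counts in all, whereas NLRC5 lay above 40.8% of them.

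**Figure D2:**
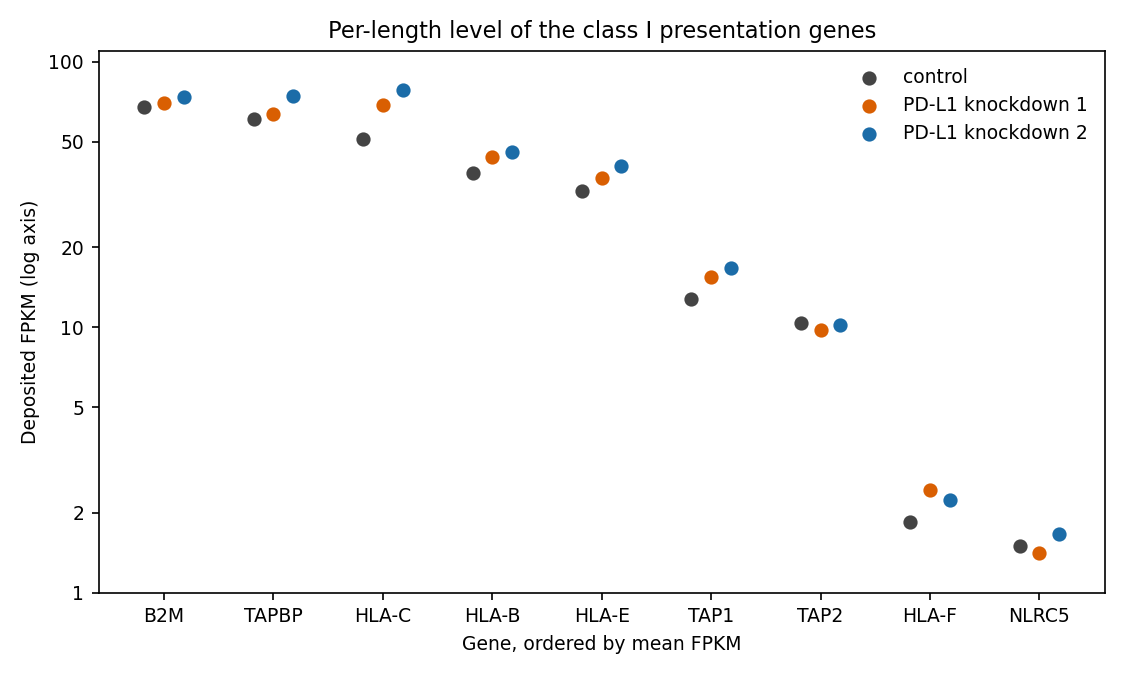
Deposited FPKM (y axis, log scale) of the 9 genes (x axis, ordered by mean), with 1 point per library. B2M, TAPBP and HLA-C lie between 51.1 and 78.3 FPKM, and HLA-F and NLRC5 lie between 1.41 and 2.43.

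Gene length enters these levels directly. The listed length was the summed length of all annotated exons of a gene for all 9 genes, and it exceeded the longest principal transcript by 1.14 times for HLA-E (2975 against 2601 bases) up to 3.57 times for B2M (6079 against 1705 bases). Divided by the principal transcript's length in place of the listed one, the mean level of B2M was 251 FPKM, that of TAPBP 177, that of HLA-C 108, that of HLA-B 84.2 and that of HLA-E 41.8. On that scale the range of B2M no longer overlapped that of TAPBP, and its mean stood apart from that of HLA-C, its heavy chain partner, whereas on the listed scale their means were 70.5 and 66.1 FPKM. TAP2 and TAP1 changed places, with means of 25.9 and 24.4 FPKM and overlapping ranges, and the gap from HLA-E to the transporter was narrower. The ranges of HLA-C and HLA-B overlapped on the principal scale, although HLA-C was above HLA-B within each library. Those of HLA-B and HLA-E no longer overlapped. The counts themselves and the ratios between libraries do not depend on the length used.

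HLA-C was the member with the largest difference from the control. HLA-C (ENSG00000204525, chr6:31268749-31272130, minus strand), a classical heavy chain and the main ligand of the killer immunoglobulin-like receptors of natural killer cells, had 1902 counts in the control, 2549 in knockdown 1 and 3103 in knockdown 2. Both were higher than the control, and knockdown 2 was higher than knockdown 1. The CPM ratio to the control was 1.35 for knockdown 1 (exact 95% counting interval 1.27 to 1.43) and 1.52 for knockdown 2 (1.44 to 1.61). The fitted log2 fold change was 0.52 (SE 0.12). These intervals cover counting error only, and they compare libraries, not conditions. HLA-C holds TGACG and inverted CCAAT matches in its promoter and no strict match to the ISRE core, as does HLA-B.

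HLA-B (ENSG00000234745, chr6:31269491-31357188, minus strand), the other classical heavy chain of the group, had 1729, 1980 and 2215 counts in the control, knockdown 1 and knockdown 2. Its ratios to the control were 1.15 (1.08 to 1.23) and 1.20 (1.12 to 1.27), and the log2 fold change was 0.23 (SE 0.12). HLA-B was thus nearer to the control than HLA-C in both libraries, and the number of HLA-C counts per HLA-B count was 1.10 (1.03 to 1.17) in the control, 1.29 (1.21 to 1.37) in knockdown 1 and 1.40 (1.33 to 1.48) in knockdown 2. This ratio compares 2 genes within a library, so scaling between libraries does not enter it. Counts of the 2 genes are not fully separable, because 10.43% of the 31-base words of HLA-C transcripts also occur in HLA-B, 35 bases of exon are shared on the same strand, and the treatment of reads that match several genes is not given in the sources used here.

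HLA-E (ENSG00000204592, chr6:30489467-30494205, plus strand), which shows leader peptides of other heavy chains to the receptor NKG2A, had 1442, 1608 and 1899 counts. Both ratios were above 1, at 1.12 (1.04 to 1.20) and 1.23 (1.15 to 1.32). HLA-F (ENSG00000204642, chr6:29722775-29738528, plus strand) had 119, 156 and 153 counts. Its ratio was 1.32 (1.03 to 1.69) in knockdown 1 and 1.20 in knockdown 2, where the interval (0.939 to 1.54) included 1, and the log2 fold change of 0.33 had an SE of 0.24. At this depth a difference of HLA-F in knockdown 2 was not detectable. HLA-F also overlaps the antisense gene HLA-F-AS1 over 535 exonic bases, which had 58, 27 and 44 counts, and without knowledge of strand in the counting their reads cannot be told apart.

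Reads were also summed over HLA-B, HLA-C, HLA-E and HLA-F, so that reads passing between these 4 similar genes do not matter; this sum was added after the data had been seen. It was 5192 counts in the control, 6293 in knockdown 1 and 7370 in knockdown 2, with ratios of 1.22 (1.17 to 1.26) and 1.33 (1.28 to 1.37). The share of HLA-C in the sum was 36.6% (exact 95% binomial interval 35.3 to 38.0) in the control, 40.5% (39.3 to 41.7) in knockdown 1 and 42.1% (41.0 to 43.2) in knockdown 2. The interval of the control lay below those of both other libraries. HLA-B took 33.3% (32.0 to 34.6), 31.5% (30.3 to 32.6) and 30.1% (29 to 31.1), of which only the share in knockdown 2 lay apart from the control.

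Without a correction for GC content, the light chain stayed near the control. B2M (ENSG00000166710, chr15:44711487-44718877, plus strand) was the most counted of the genes, with 6105, 6289 and 7098 counts. Its ratio to the control was 1.03 (0.999 to 1.07) in knockdown 1 and 1.09 (1.05 to 1.12) in knockdown 2. HLA-C counts per B2M count were 0.312 (0.296 to 0.328) in the control, 0.405 (0.387 to 0.424) in knockdown 1 and 0.437 (0.419 to 0.456) in knockdown 2. HLA-B counts per B2M count were 0.283, 0.315 and 0.312, and HLA-E counts per B2M count were 0.236, 0.256 and 0.268. Of these, the intervals were apart from that of the control only for HLA-E in knockdown 2 (0.254 to 0.281 against 0.223 to 0.25), and for HLA-B in both libraries and HLA-E in knockdown 1 they touched or overlapped it. These ratios were not corrected for GC content, which is 41.2% for B2M, 59.7% for HLA-B, 61.6% for HLA-C and 61.5% for HLA-E. With GC and length trends removed, the log2 fold change was 0.26 for B2M and 0.34 for HLA-C. It was then 0.07 for HLA-B and 0.03 for HLA-E, both under that of B2M. B2M lies on another chromosome than the heavy chains and shares 1.79% of its 31-base words with other genes, the lowest share after NLRC5.

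The subunits of the peptide transporter differed from each other. TAP1 (ENSG00000168394, chr6:32845209-32853978, minus strand) had 916, 1101 and 1266 counts and was higher in both libraries, with ratios of 1.21 (1.10 to 1.32) and 1.29 (1.18 to 1.41). TAP2 (ENSG00000204267, chr6:32821833-32838780, minus strand) had 984, 922 and 1030 counts, and its ratios of 0.941 (0.859 to 1.03) and 0.978 (0.895 to 1.07) had intervals that included 1. TAP1 counts per TAP2 count were 0.931 (0.850 to 1.02) in the control, 1.19 (1.09 to 1.30) in knockdown 1 and 1.23 (1.13 to 1.34) in knockdown 2. Both promoters hold an ISRE core.

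Beside TAP1 lies PSMB9, an interferon-inducible proteasome subunit, on the opposite strand with its RefSeq start 488 bases from that of TAP1. PSMB9 had 199, 262 and 323 counts, and the counts of TAP1 per PSMB9 count were 4.60 (3.94 to 5.39), 4.20 (3.67 to 4.83) and 3.92 (3.47 to 4.44), with overlapping intervals in the 3 libraries. TAP1 shares 456 exonic bases with the antisense gene PSMB8-AS1 (13, 25 and 31 counts). Of the 31-base words of TAP2, 31.73% also occur in AL669918.1, a gene annotated over it on the same strand with 0 counts in all libraries, so the counting of reads in the shared exons is uncertain.

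TAPBP (ENSG00000231925, chr6:33299694-33314387, minus strand) had 4571 counts in the control, 4762 in knockdown 1 and 5928 in knockdown 2. The ratio was 1.05 in knockdown 1, with a lower bound at 1.0, and 1.21 (1.17 to 1.26) in knockdown 2, so the difference of TAPBP was mainly in knockdown 2. NLRC5 (ENSG00000140853, chr16:56989485-57083531, plus strand) had 276, 258 and 326 counts. Its ratios of 0.939 (0.789 to 1.12) and 1.10 (0.937 to 1.30) lay on both sides of 1, and both intervals included it. A change of the activator's mRNA was therefore not detectable at this depth.

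**Figure D3:**
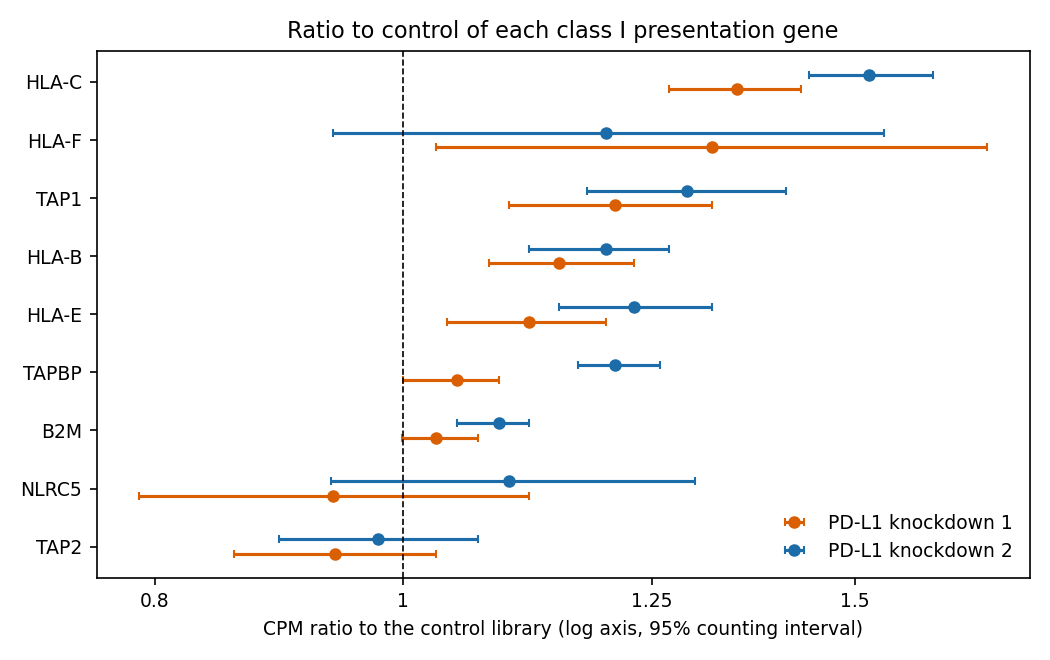
CPM ratio to the control library (x axis, log scale) of each of the 9 genes (y axis) in the libraries labelled PD-L1 knockdown 1 and 2; points are ratios and bars are exact 95% counting intervals. HLA-C lies farthest to the right, at 1.35 and 1.52, and the intervals of TAP2 and NLRC5 include 1 in both libraries.

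All 9 genes passed the filter of 10 counts in all. In 7 of the 9 the CPM was above the control in both libraries, in TAP2 it was below the control in both, and in NLRC5 the libraries lay on opposite sides. Over all tested genes, 37.7% were above the control in both libraries. The counting intervals of 5 genes (HLA-B, HLA-C, HLA-E, TAP1 and TAPBP) lay above 1 in both libraries, which held for 10.3% of the tested genes and for 16.8% of the 10861 genes that averaged 100 counts or more, as all 9 did. The median log2 fold change of the 9 was 0.23, beside 0.00 over all tested genes. In edgeR's quasi-likelihood fit 49 genes were called higher and 21 lower at a Benjamini-Hochberg adjusted p under 0.05, which is 0.353% of those tested (0.247% called higher). Of the 9 genes, HLA-C was called higher and none was called lower. The call of HLA-C was lost with DESeq2's Wald test and with GC and length trends removed. These counts describe genes that were chosen on this same contrast.

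Knockdown 2 exceeded knockdown 1 in 8 of the 9 genes, HLA-F being the exception at 0.912 (0.725 to 1.15). It did so in 49.3% of all tested genes and in 48.3% of those averaging 100 counts or more. The interval of the ratio between these libraries lay above 1 for 4 genes: TAPBP at 1.16 (1.11 to 1.20), HLA-C at 1.13 (1.07 to 1.19), HLA-E at 1.10 (1.03 to 1.17) and B2M at 1.05 (1.01 to 1.09). It lay above 1 for 12.9% of all tested genes, and for 18.1% of those averaging 100 counts or more. In the latter set it lay above or below 1 for 37.5%, so the libraries labelled as knockdowns differed beyond counting error in many genes. For HLA-B (1.04), TAP1 (1.07), TAP2 (1.04) and NLRC5 (1.17) the interval included 1. The median log2 ratio of knockdown 2 to knockdown 1 was 0.10 over the 9 genes and -0.01 over all tested genes.

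The GC content of the transcripts moved with the fold change over the whole table, and most class I genes are rich in GC. When tested genes were split into 20 equal classes by mean transcript GC content, the median log2 fold change of genes averaging 100 counts or more went from -0.21 in the class lowest in GC to 0.27 in the highest. HLA-B, HLA-C, HLA-E and TAPBP had between 59.7% and 62.1% GC, in classes with medians of 0.19 to 0.24. HLA-B at 0.23, HLA-E at 0.23 and TAPBP at 0.17 were thus near the genes of like GC content, while HLA-C at 0.52 was above its class median of 0.19. TAP1, with 54.6% GC and a log2 fold change of 0.32, was above its class median of 0.10. B2M has 41.2% GC, and its 0.08 lay above a class median of -0.16. TAP2 at -0.06 was under its class median of 0.07, and NLRC5 at 0.03 and HLA-F at 0.33 were on either side of the 0.16 of the class that holds both.

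With the trends with GC content and length both removed, the log2 fold change was 0.34 for HLA-C, 0.26 for TAP1, 0.26 for B2M and 0.17 for HLA-F. It was 0.07 for HLA-B, 0.03 for HLA-E, -0.02 for TAPBP, -0.07 for NLRC5 and -0.08 for TAP2. Removal of the length trend alone left HLA-C at 0.50 and TAP1 at 0.29.

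**Figure D4:**
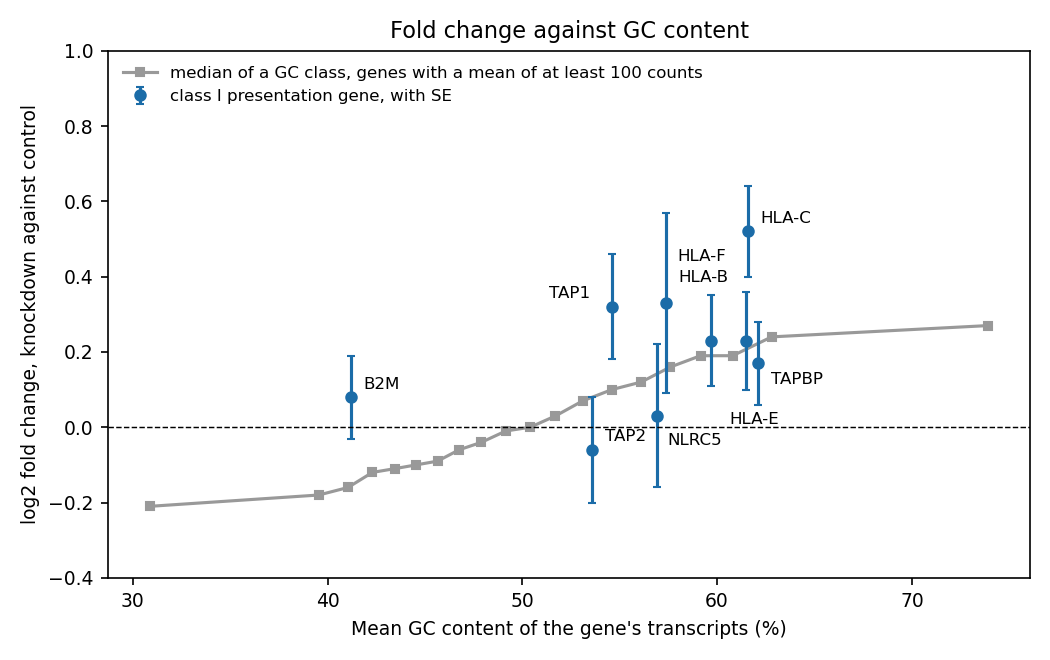
Fitted log2 fold change, knockdown against control, of the 9 genes (blue, with SE) against the mean GC content of their transcripts; the grey line joins the medians of 20 GC classes. The medians go from -0.21 to 0.27, and HLA-C (0.52), TAP1 (0.32) and B2M (0.08) lie above the line, HLA-B (0.23) and HLA-E (0.23) lie close to it, and TAPBP (0.17) lies under it.

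Other genes of the pathway were examined in 5 lists with 60 genes, of which 56 passed the filter of 10 counts. None was called higher or lower by edgeR (0 of 56 at an adjusted p under 0.05, beside 0.353% of all tested genes) or by DESeq2's Wald test, and 8 of the 56 had an unadjusted p under 0.05 in edgeR, as did 11.7% of all tested genes. In the list of peptide supply (11 genes: immunoproteasome subunits, proteasome activators and peptidases) the median log2 fold change was -0.03 (0.08 without knockdown 2, and 0.08 with GC and length trends removed), and the lowest adjusted p in edgeR was 0.263. Its most counted genes were the peptidase NRDC (-0.05), the proteasome activator subunit PSME3 (0.08) and the peptidase THOP1 (0.30, 1947, 2373 and 2576 counts). PSMB9 had 0.51, and LNPEP, an aminopeptidase that trims peptides in endosomes, had -0.29 with 2235, 1977 and 1792 counts. These 2 were named after their values were seen. ERAP1 and ERAP2, which trim peptides in the endoplasmic reticulum, had -0.15 and -0.19, and both their ratios to the control were under 1 in both libraries.

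The list of folding and loading (9 genes, all tested) had a median of 0.10 and a lowest adjusted p of 0.287 in edgeR. CANX, the chaperone calnexin that receives new heavy chains, was counted 14471, 13473 and 13742 times, at a log2 fold change of -0.13. CALR, the calreticulin of the loading complex, had 6251, 6902 and 8245 counts and 0.23. HSPA5 had 0.01 and P4HB 0.19, and PDIA3, which joins tapasin in the loading complex, had -0.11. TAPBPL, which edits the bound peptides and was picked out once its values were known, stood at 0.59 with 107, 168 and 165 counts.

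Of 12 other class I and class I-like heavy chains 10 were tested, with a median of 0.16 and a lowest adjusted p of 0.415 in edgeR. Without knockdown 2 the median was 0.03, without knockdown 1 it was 0.26, and with GC and length trends removed it was 0.04. The stress ligands MICA and MICB, which bind the receptor NKG2D, had 0.33 and 0.19. HLA-G, the heavy chain known from the placenta, had 0, 0 and 2 counts.

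Of 14 class II presentation genes 12 were tested, with a median of 0.29 and a lowest adjusted p of 0.453 in edgeR. Without knockdown 2 the median was -0.08, so its sign rested on that library. Most had few counts: HLA-DRA had 6, 2 and 2, and HLA-DQA1 and HLA-DOA had 0 in each library. The most counted were CD74, the invariant chain, with 260, 321 and 362 counts and 0.35, HLA-DMA with 82, 90 and 116 counts, and CIITA, the class II activator related to NLRC5, with 30, 39 and 37 counts. The log2 fold changes of this list ran from -1.57 to 2.41, from HLA-DRA at the low end to HLA-DOB at the high end, each with at most 7 counts in a library.

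The 14 transcription factors of class I promoters had a median of -0.01 and a lowest adjusted p of 0.403 in edgeR. RFX5, a subunit of the RFX complex, was counted 2223, 2316 and 2409 times, at a log2 fold change of 0.04. RELA, the NF-kappa B subunit p65, had 1787, 2081 and 2308 counts and 0.25, the highest of the list. IRF1, an interferon-induced activator that binds ISREs and was likewise picked out afterwards, stood at 0.20 with 348, 377 and 452 counts.

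**Figure D5:**
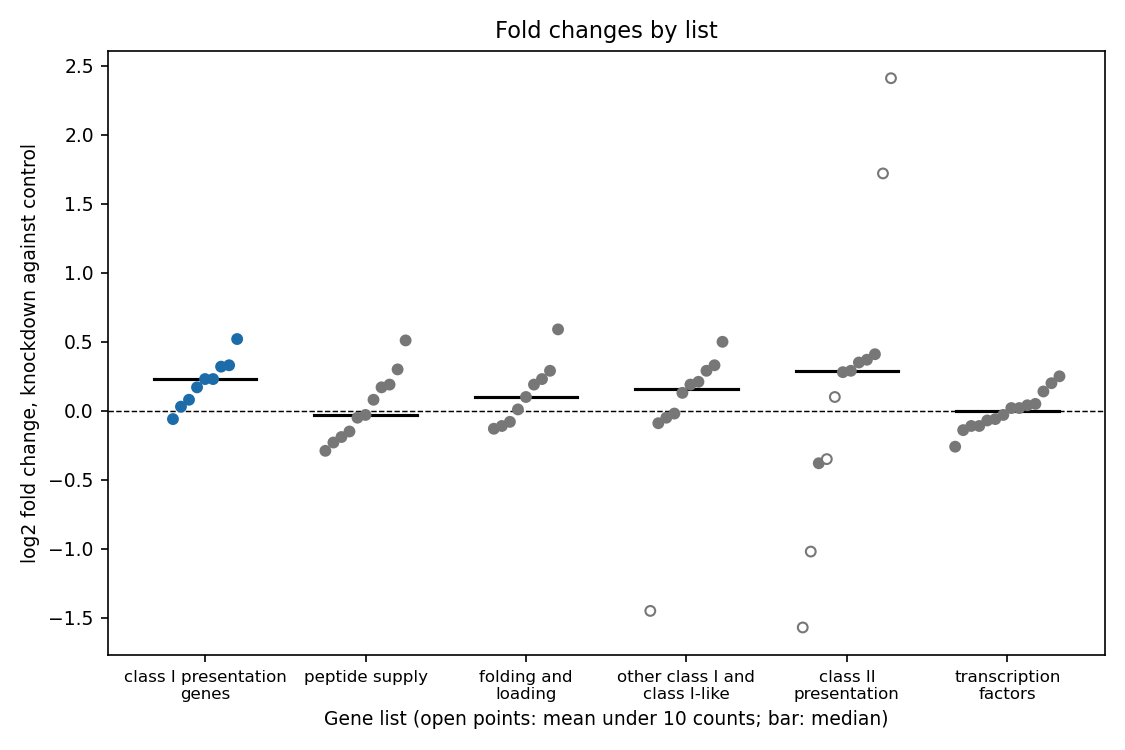
Fitted log2 fold change, knockdown against control (y axis), of every tested gene in the class I group (blue) and the 5 lists of related genes (grey), with the median of each as a bar and genes with a mean under 10 counts as open points. The median of the class I group is 0.23, and those of the lists run from -0.03 to 0.29.

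Genes outside the group and the lists were ranked by how near their log2 ratios to the control lay to the group's median of 0.16 in knockdown 1 and 0.26 in knockdown 2, over 3 libraries. The nearest of 10803 candidates averaging 100 counts or more were AC073869.1, MRPS25, FBRS, NPDC1 and MRPS12, with distances from 0.00507 to 0.00722 on the log2 scale. In all, 948 candidates lay within 0.1, so a pair of ratios like the group's median was frequent in these libraries. Single members such as HLA-C lay farther from that median, and how frequent their ratios were was not examined.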

How the data were processed

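RNA of 3 DU145 libraries was sequenced (1 control, 2 labelled PD-L1 knockdown). The authors deposited raw read counts per gene, and FPKM that were checked to follow from the count, the listed gene length and 1 constant per library. Per the labels, the submitters' processing notes name Bowtie2 2.0.6, TopHat2 2.0.9, Cufflinks 2.1.1 and Cuffdiff 2.1.1; the build, strand setting and handling of multiply matching reads are not given in the sources used here. All 58735 gene IDs and positions matched GENCODE 29 (GRCh38). Groups came from the labels.

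The 19849 genes whose counts over all libraries came to 10 or more were fitted with edgeR 4.0.16 in R 4.3.3 (TMM scaling, glmQLFit, glmQLFTest, Benjamini-Hochberg adjustment), both knockdown libraries against the control. The fit has 1 residual degree of freedom, and its common dispersion was 0.00719. The median of its prior degrees of freedom was infinite, so the spread of a gene was taken from the trend over all genes. P-values and SEs thus measure only a spread, averaged over genes, between the 2 libraries labelled as knockdowns. Nothing states that they are separate cultures of 1 line. DESeq2 1.42.0, other scalings, filters, trend removals and pseudocounts were alternatives. The edgeR fit was also run on simulated counts, with planted fold changes larger than that of any member and without a GC trend. That run does not bear on calls such as that of HLA-C. The members and gene lists were chosen with earlier results of these data known. Named beside the members were, per list, genes past the threshold and the 3 with the highest mean count, and the 5 genes nearest to the group's median ratios. Further genes of the lists were named after their values had been seen. Intervals and limits are exact (95%; scipy 1.17.1) and cover counting error only, since the reads carry no molecular identifiers and PCR copies are not independent. Promoters were aligned with Biopython 1.88. Shared sequence was measured by the 31-base words of a gene's transcripts that transcripts of other genes also hold, in percent. Some genes that the rule or the lists include are not reported here.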

Additional observations from a re-analysis of the deposited data

How the results depend on the processing

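The number of genes called over the whole table depended on the tool: edgeR called 49 higher and 21 lower, and DESeq2's Wald test called 3 higher and 3 lower; the cause was not tested. The count of called genes in the 5 pathway lists was 0 in each direction under all 6 alternatives with a test. The log2 fold changes of HLA-B, HLA-C, HLA-E, HLA-F, B2M, TAP1 and TAP2 kept their sign under all 10 alternatives. That of TAPBP turned from 0.17 to -0.02 with GC and length trends removed, an alternative chosen after seeing the data, and that of NLRC5 (0.03) changed sign under 2 of 10. Values without 1 library have no test, since they compare 1 library with 1: without knockdown 1 HLA-C was at 0.61 and NLRC5 at 0.14, and without knockdown 2 NLRC5 was at -0.09. On the log2(FPKM + 1) scale HLA-F was at 0.23 in place of 0.33, since a pseudocount understates the change of low genes. Of 94 alternative values of the 9 fold changes, 84 stayed within 1 SD of the knockdown libraries, and of 40 alternative list medians 36 did. For the fold changes this tally is no measure of robustness. A value without 1 of the 2 knockdown libraries lies within their SD by construction. The TMM factors were 0.9971 to 1.0018, so rescaled values had little room to move. Without knockdown 2 the medians of class II presentation and of peptide supply changed sign, from 0.29 to -0.08 and from -0.03 to 0.08. The order of the 9 levels was the same in FPKM and TPM. The ratios of knockdown 2 to knockdown 1 stayed within their counting intervals under all 18 rescaled values, which likewise had little room to move. No paired analysis was possible because the control is 1 library. Depth limits HLA-F and NLRC5 most, at 119 to 326 counts a library.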
